A study of Homo sapiens with 8 samples.

Results

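Peroxisome import and metabolism genes, 34 in number, were read out of 57992 genes counted by RNA-seq in RKO cells, a human colon cancer line. The 34 comprised 13 peroxins, the proteins that build peroxisomes and carry enzymes into them, and 21 peroxisomal enzymes and transporters. They were chosen by function with results of this same contrast already known, so their differences are given as a description. The samples were 4 libraries from cells given control siRNA and 4 from cells given siRNA against A20, the ubiquitin-editing enzyme encoded by TNFAIP3. All 8 had been stimulated with recombinant human wnt3a at 50 ng/mL for 24 hours, so no group lacked wnt3a. A20 was knocked down and not knocked out, 1 cell line was used, and the sources used here do not say whether the replicates of a group were separate cultures, so p-values measure only the spread between these samples.

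Peroxisomes are single-membrane organelles that shorten very long and branched fatty acids, make the first intermediates of ether lipids and break down hydrogen peroxide. They take up folded enzymes from the cytosol: PEX5 binds the type 1 signal at the end of most matrix proteins, PEX7 binds the type 2 signal near the start of a few, and both dock at PEX13 and PEX14. PEX5 is then pulled back out after ubiquitination by a ligase that includes PEX2 and PEX10 and by the PEX6 complex, which PEX26 anchors. PEX3, PEX16 and PEX19 insert membrane proteins, and the PEX11 proteins act in division.

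The import signals are shown first because the PEX5 and PEX7 receptors, to which the results return, recognise them. Coding sequences of the canonical GENCODE 44 transcripts were searched for the type 1 ending (serine, alanine or cysteine, then lysine, arginine or histidine, then leucine or methionine) and for the type 2 signal in the first 40 residues. Among 19679 coding sequences, 89 (0.452%) had the type 1 ending and 26 (0.132%) the type 2 signal. Of the 34 genes 10 (29.4%) had the type 1 ending, namely ACOX3, HSD17B4, GNPAT, SCP2, ACOT8, ECH1, ECI2, DECR2, PECR and MLYCD, and the type 2 signal was found in ACAA1 and PHYH. The remaining 22, which hold all 13 peroxins, had neither set of letters in the stretches searched. A type 2 signal that begins or runs past residue 40 would be missed, so these 22 can include genes with one. Below are the last 9 codons and the stop codon of 4 genes with the type 1 ending, with the last 3 codons in capitals.
GNPAT: ataggaaaaccagccactGCAAAACTTtaa
SCP2: cagcttcagccaggcaacGCTAAGCTCtga
HSD17B4: atgattcttaaagactacGCCAAGCTCtga
DECR2: gatttcgcatccttctctGCTAAGCTCtag

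These endings lie in GRCh38 at chr1:231277513-231277542 (GNPAT, exon 16), chr1:53050675-53050704 (SCP2, exon 16), chr5:119541965-119541994 (HSD17B4, exon 24) and chr16:411549-411578 (DECR2, exon 8), all on the plus strand and coding up to the stop codon. Catalase is known to be imported with an ending that departs from the canonical letters, and the endings of CAT, PRDX5 and CROT are given for comparison, again with the last 3 codons in capitals. They lie at chr11:34471404-34471433 (CAT, exon 13), chr11:64321662-64321691 (PRDX5, exon 6) and chr7:87398615-87398644 (CROT, exon 18), on the plus strand.
CAT: ttggcggcaagggagaagGCAAATCTGtga
PRDX5: ctggcacccaatatcatcTCACAGCTCtga
CROT: atacagctgatgaactctACTCATCTTtag

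Both type 2 signals found were in exon 1, on the minus strand, at chr3:38136994-38137035 for ACAA1 and chr10:13299983-13300027 for PHYH. The stretch that matched is in capitals, beginning at residue 3 of ACAA1 and residue 9 of PHYH.
ACAA1: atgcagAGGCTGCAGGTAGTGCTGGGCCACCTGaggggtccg
PHYH: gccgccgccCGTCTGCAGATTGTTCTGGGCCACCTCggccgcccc

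Total counts were 23912317 to 30022486 in the control siRNA libraries and 21226451 to 34194273 in the A20 siRNA libraries. TNFAIP3 checked the labels: its level, in CPM (counts scaled to library size by TMM), was 4.92, 5.83, 5.59 and 5.54 in control replicates 1 to 4 and 3.47, 3.01, 3.40 and 3.43 in A20 siRNA replicates 1 to 4. The groups did not overlap, and 60.8% of the control level was left (log2 fold change -0.71, SE 0.0953, adjusted p = 0.00258 edgeR's quasi-likelihood test, Benjamini-Hochberg; exact two-sided permutation p = 0.0286, the smallest that 4 against 4 allows). Of the colon epithelial markers, EPCAM, KRT8, KRT18 and CDX2 were detected. KRT20, CDX1, CDH1, LGR5 and MUC2 had 0 counts, and VIL1 and CDH17 had at most 1 in any library. The summed level of the list was 140.4 to 151.6 CPM in control and 138.1 to 146.3 CPM in A20 siRNA libraries. KRT18 alone made up 91.2 to 101.3 CPM of that sum. Markers of blood, endothelial, stromal and liver cells summed to at most 0.143 CPM in any library. The correlation of a library's deviations with exonic length (Spearman's rho across genes, which are not independent) was -0.110 to -0.202 in control replicates 2 to 4 but 0.0894 in control replicate 1, and 0.0793 to 0.191 in A20 siRNA replicates 1, 3 and 4 but -0.0755 in A20 siRNA replicate 2. These 2 libraries therefore stood apart from their groups in this trend, and calls that turn on them are given with and without them. With both left out, all remaining controls had a negative correlation and all remaining A20 siRNA libraries a positive one. An effect of the trend and an effect of the siRNA then cannot be told apart.

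Among the 34 genes, PEX5 had the only call. All 34 were among the 13412 genes tested, and the median log2 fold change was -0.02 against 0.00 over all tested genes. The fitted value was below 0 for 21 (61.8%, where 48.4% of all tested genes were) and above 0 for 13. It was under 0.1 in size for 29. PEX5 was lower at an adjusted p under 0.05 (2.94% of the 34, where 0.611% of all tested genes were called lower), and 0 were called higher (0.634% of all tested genes), with 3 lower (8.82%) and 4 higher (11.8%) at an unadjusted p under 0.05, where 7.37% and 8.81% of all tested genes were. DESeq2 also called PEX5 alone, and gave no adjusted p for PEX11G, AMACR, DECR2 and PECR. In 3 genes, PEX5, PRDX5 and SCP2, every A20 siRNA library lay below every control library (8.82%, against 3.90% of all tested genes), and in 0 did every A20 siRNA library lie above (3.71% of all tested genes). In bulk RNA, fewer cells that use a gene and less of its RNA per cell cannot be told apart.

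**Figure D1:**
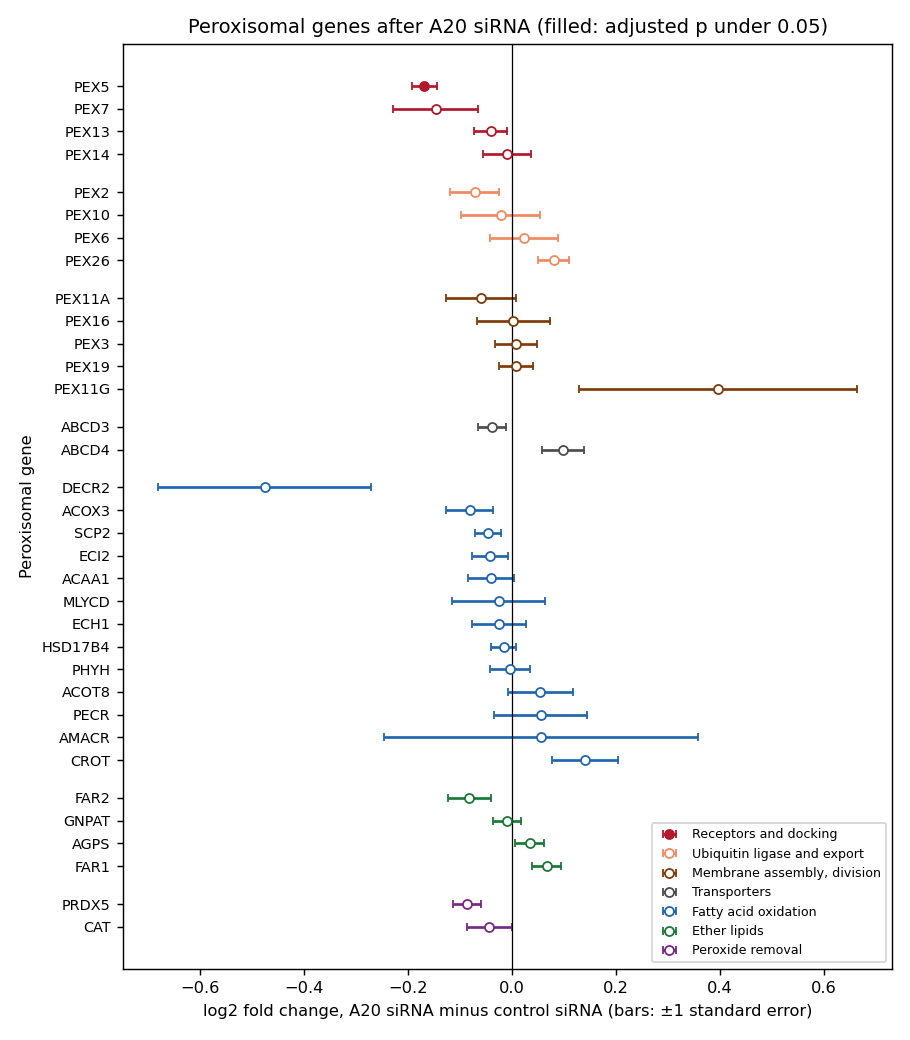
Log2 fold change (A20 siRNA minus control siRNA) of each of the 34 genes, in groups by role, with bars of 1 standard error either side (4 libraries a group). The filled point, PEX5 at -0.17, is the only one with an adjusted p under 0.05, and the points farthest from 0, DECR2 and PEX11G, have the widest bars together with AMACR.

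The receptors and docking proteins were all on the lower side by fitted sign, where 48.4% of all tested genes were. Their median was -0.09, only PEX5 passed the test, and PEX14 turned in sign in 4 of 17 alternatives. PEX5 (ENSG00000139197, chr12:7188685-7218574, plus strand), the type 1 receptor, was at 108.9, 111.3, 109.2 and 111.2 CPM in control replicates 1 to 4 and at 99.1, 99.2, 95.5 and 97.8 CPM in A20 siRNA replicates 1 to 4. All 4 A20 siRNA libraries were below all 4 controls, and the gap between the groups was wider than the spread within either. The mean moved from 110.1 ± 1.26 to 97.9 ± 1.71 CPM (SD, n = 4), which left 88.9% of the control level (log2 fold change -0.17, SE 0.0241, adjusted p = 0.00268, edgeR). It rested on 2081 to 3398 counts a library, and across 17 alternative ways of processing the counts the value lay between -0.18 and -0.16 and passed in 17 (adjusted p 8.31e-07 to 0.0232). Only 1.18% of its exonic length overlaps another annotated gene, a lncRNA on the opposite strand.

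PEX7 (chr6:136822564-136913934), the type 2 receptor, was at 8.45, 8.73, 8.33 and 7.99 CPM in control replicates 1 to 4. Its A20 siRNA libraries were at 8.34, 8.27, 6.55 and 6.72 CPM. Replicates 3 and 4 of A20 siRNA were low and the other 2 lay within the control range, so the groups overlapped. The log2 fold change of -0.15 had an SE of 0.0823, more than 3 times that of PEX5, and its adjusted p was 0.394 by edgeR. The docking proteins differed less. PEX13 was at 49.3 ± 1.06 CPM in control and 47.8 ± 1.17 CPM in A20 siRNA cells (log2 fold change -0.04), and PEX14 at 22.4 ± 0.621 and 22.1 ± 1.18 CPM (-0.01), with overlapping groups in both.

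**Figure D2:**
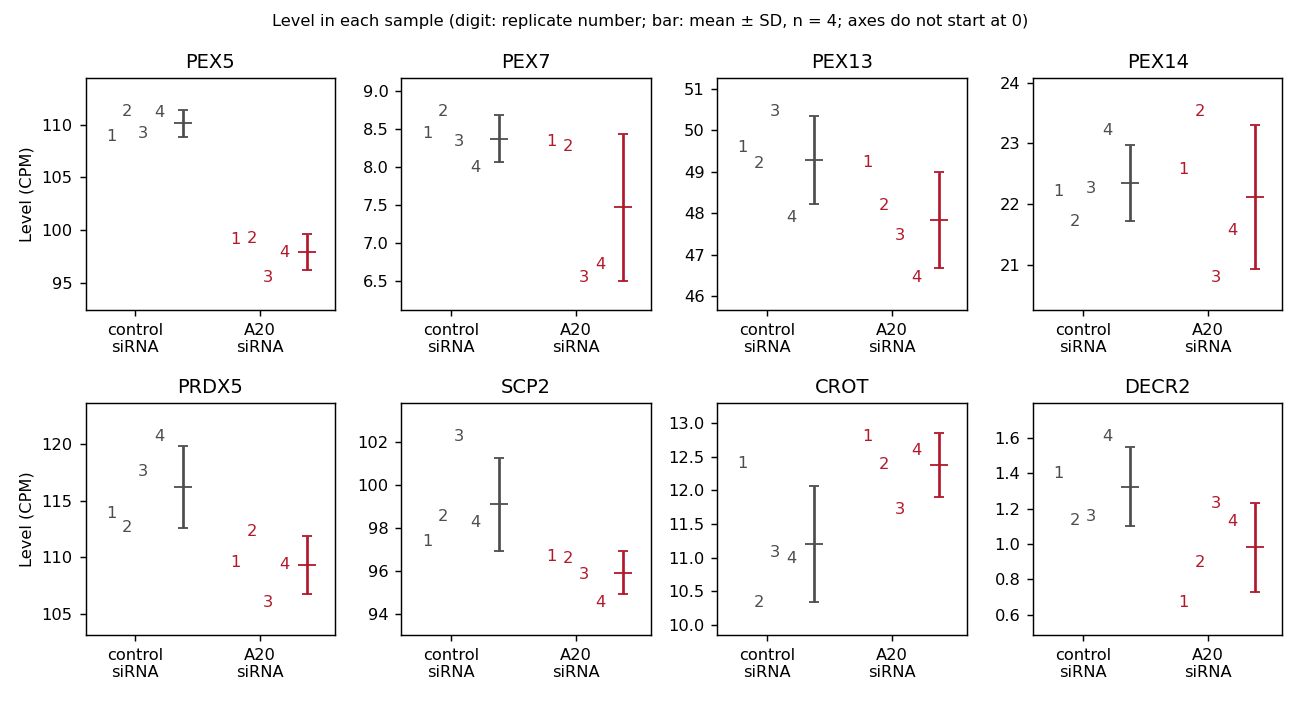
Level (CPM) in each library for 8 of the 34 genes, where each digit is the library's replicate number and the bar beside it is the mean ± SD of 4, on axes that do not start at 0. Control and A20 siRNA libraries separate for PEX5, PRDX5 and SCP2 and overlap for PEX7, PEX13, PEX14, CROT and DECR2.

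Of the genes that recycle PEX5, 0 of 4 passed the test, where 0.611% of all tested genes were called lower and 0.634% higher. Their median log2 fold change was 0.00. PEX2, a ligase subunit, was at 41.7, 44.5, 42.7 and 41.7 CPM in control and 38.2, 45.6, 39.8 and 38.6 CPM in A20 siRNA libraries, replicates 1 to 4 in order. A20 siRNA replicate 2 was above all controls and the other 3 were below all of them. Its log2 fold change was -0.07 with all libraries and -0.14 (adjusted p = 0.0702, edgeR) without A20 siRNA replicate 2, and it passed at -0.15 (adjusted p = 0.0262, edgeR) only when control replicate 1 was left out as well. PEX10, the other ligase subunit, had a log2 fold change of -0.02, and 39.1% of its exonic length overlaps RER1 on the opposite strand, whose reads could not be told apart if strand was not used in counting. The log2 fold change was 0.02 for PEX6, the ATPase that extracts PEX5, and 0.08 for PEX26, its membrane anchor (68.4 ± 2.36 and 72.5 ± 1.86 CPM, adjusted p = 0.192, edgeR).

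Membrane assembly and division genes gave no call in either direction, where 0.611% of all tested genes were called lower and 0.634% higher. The membrane protein importers stayed within 0.01 of 0 on the log2 scale by fitted value, at 0.01 for PEX3, 0.00 for PEX16 and 0.01 for PEX19. PEX11A, a division factor, was at 9.86 ± 0.370 CPM in control and 9.45 ± 0.751 CPM in A20 siRNA cells (log2 fold change -0.06, and -0.12 without A20 siRNA replicate 2). PEX11G, its relative, rested on 8 to 19 counts a library. It was at 0.266, 0.470, 0.463 and 0.423 CPM in control and 0.554, 0.573, 0.532 and 0.423 CPM in A20 siRNA libraries, replicates 1 to 4 in order. A20 siRNA replicate 4 lay inside the control range, and the log2 fold change of 0.40 had an SE of 0.267 (adjusted p = 0.509, edgeR). Control replicate 1 was the lowest library, and the value was 0.22 without it and 0.17 without A20 siRNA replicate 2 as well.

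ABCD3 and ABCD4 are ABC transporters of related sequence, of which ABCD3 brings branched fatty acids and bile acid precursors into peroxisomes and ABCD4 is known chiefly from lysosomes, where it handles cobalamin. ABCD3 was at 120.5 ± 4.06 CPM in control and 117.4 ± 2.45 CPM in A20 siRNA cells (log2 fold change -0.04). The libraries for ABCD4 were at 29.9, 28.6, 27.1 and 27.5 CPM in control and 30.9, 30.0, 30.8 and 29.5 CPM in A20 siRNA cells, replicates 1 to 4 in order. The control replicate 1 library reached into the A20 siRNA range and the other 3 controls did not (log2 fold change 0.10, adjusted p = 0.225, edgeR).

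The enzymes of fatty acid oxidation were the largest group, with 13 genes and a median log2 fold change of -0.03. By fitted sign 9 were below 0 (69.2%, where 48.4% of all tested genes were) and 4 above 0. The group gave 0 calls, where 0.611% of all tested genes were called lower and 0.634% higher. SCP2, which carries sterols and supplies the last thiolase step for branched chains, was at 97.4, 98.5, 102.3 and 98.3 CPM in control and 96.7, 96.6, 95.8 and 94.5 CPM in A20 siRNA libraries. The groups did not overlap, yet the gap between the lowest control and the highest A20 siRNA library was small beside the spread within the controls (log2 fold change -0.05, adjusted p = 0.372, edgeR). Of the exonic length of SCP2, 15.4% is shared with the pseudogene TUBBP10 on the same strand. ACOX3, an oxidase of branched substrates, had a log2 fold change of -0.08, and HSD17B4, which carries out the hydratase and dehydrogenase steps, was at 145.9 ± 3.43 and 144.2 ± 2.14 CPM (-0.02). Thiolase ACAA1 (-0.04) and the phytanic acid hydroxylase PHYH (0.00) are the genes with the type 2 signal.

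DECR2, which reduces double bonds during oxidation, had the log2 fold change farthest below 0 and was measured with 23 to 42 counts a library. Its levels were 1.40, 1.14, 1.16 and 1.61 CPM in control replicates 1 to 4 and 0.671, 0.895, 1.23 and 1.13 CPM in A20 siRNA replicates 1 to 4. A20 siRNA replicates 1, 2 and 4 were below all controls, replicate 4 only just, and replicate 3 was inside the control range. The log2 fold change was -0.48 with an SE of 0.204 (adjusted p = 0.253, edgeR), and 14.3% of its exonic length is shared with NME4 on the same strand.

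CROT, which moves shortened chains onto carnitine for export to mitochondria, was at 12.4, 10.3, 11.1 and 11.0 CPM in control and 12.8, 12.4, 11.7 and 12.6 CPM in A20 siRNA libraries. Only control replicate 1 reached the A20 siRNA range. The log2 fold change was 0.14 (SE 0.0631, adjusted p = 0.275, edgeR), and it was 0.20 (adjusted p = 0.0608, edgeR) without control replicate 1. AMACR, the racemase that prepares branched substrates, was read with 8 to 24 counts a library, at 0.432, 0.352, 0.733 and 0.634 CPM in control and 0.700, 0.716, 0.328 and 0.376 CPM in A20 siRNA cells. Those ranges coincide, and 61.4% of its exonic length is shared with the read-through gene C1QTNF3-AMACR. Its fitted log2 fold change of 0.06 (SE 0.301) carries the sign opposite to the difference of its means, 0.538 and 0.530 CPM.

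The other genes of this group had log2 fold changes of 0.05 for the thioesterase ACOT8, -0.03 for the isomerase ECH1, -0.04 for the isomerase ECI2, 0.06 for the enoyl-CoA reductase PECR and -0.03 for malonyl-CoA decarboxylase, MLYCD. Exonic overlap with a gene on the opposite strand was 34.2% for ACOT8 (SNX21), 27.1% for ECI2 (TEX56P) and 19.7% for ACAA1 (DLEC1). Their levels are uncertain to that extent if counting ignored strand. By import signal, the 10 genes with the type 1 ending had a median log2 fold change of -0.03, with 8 below 0, 2 above 0 and 0 called. They are not the whole cargo of PEX5, since genes such as CAT, with endings outside the canonical letters, are left out.

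Ether lipid synthesis begins in peroxisomes with GNPAT and AGPS and uses fatty alcohol from FAR1 and FAR2. GNPAT was at 74.4, 75.0, 72.4 and 75.5 CPM in control and 75.4, 74.8, 71.8 and 73.1 CPM in A20 siRNA libraries. The ranges coincided to within the spread of the replicates (log2 fold change -0.01, SE 0.0274, adjusted p = 0.910, edgeR). AGPS was at 175.3 ± 5.44 and 179.6 ± 5.64 CPM (0.03). FAR1 was at 158.2, 146.8, 155.2 and 144.1 CPM in control and 160.6, 154.8, 158.3 and 159.8 CPM in A20 siRNA libraries, with control replicate 1 as the highest control. Its log2 fold change was 0.07 (adjusted p = 0.239, edgeR) with all libraries and passed at 0.09 (adjusted p = 0.0484, edgeR) without control replicate 1. FAR2 had a log2 fold change of -0.08 (29.7 ± 1.48 and 28.1 ± 0.858 CPM, adjusted p = 0.347, edgeR). Pseudogenes named after FAR1, FAR2, GNPAT and PRDX5 are annotated. Only uniquely mapping reads were counted, so reads that match a gene and its pseudogene equally were left out, and how many is not known.

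PRDX5 and CAT, a peroxiredoxin and catalase, remove peroxides. PRDX5 (chr11:64318121-64321811), which also acts in mitochondria and the cytosol, was at 113.9, 112.7, 117.6 and 120.7 CPM in control replicates 1 to 4 and 109.6, 112.3, 106.0 and 109.4 CPM in A20 siRNA replicates 1 to 4. Control replicate 2 and A20 siRNA replicate 2 nearly met, and the groups did not overlap. The means were 116.2 ± 3.65 and 109.3 ± 2.58 CPM, a log2 fold change of -0.09 (SE 0.0271, adjusted p = 0.112, edgeR). Without control replicate 1 it was -0.10 and passed (adjusted p = 0.0372, edgeR), and over all alternatives the value kept its sign. CAT was at 33.0 ± 1.80 and 31.9 ± 1.03 CPM (log2 fold change -0.04, adjusted p = 0.676, edgeR), and without control replicate 1 the value was -0.08 (adjusted p = 0.222, edgeR).

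**Figure D3:**
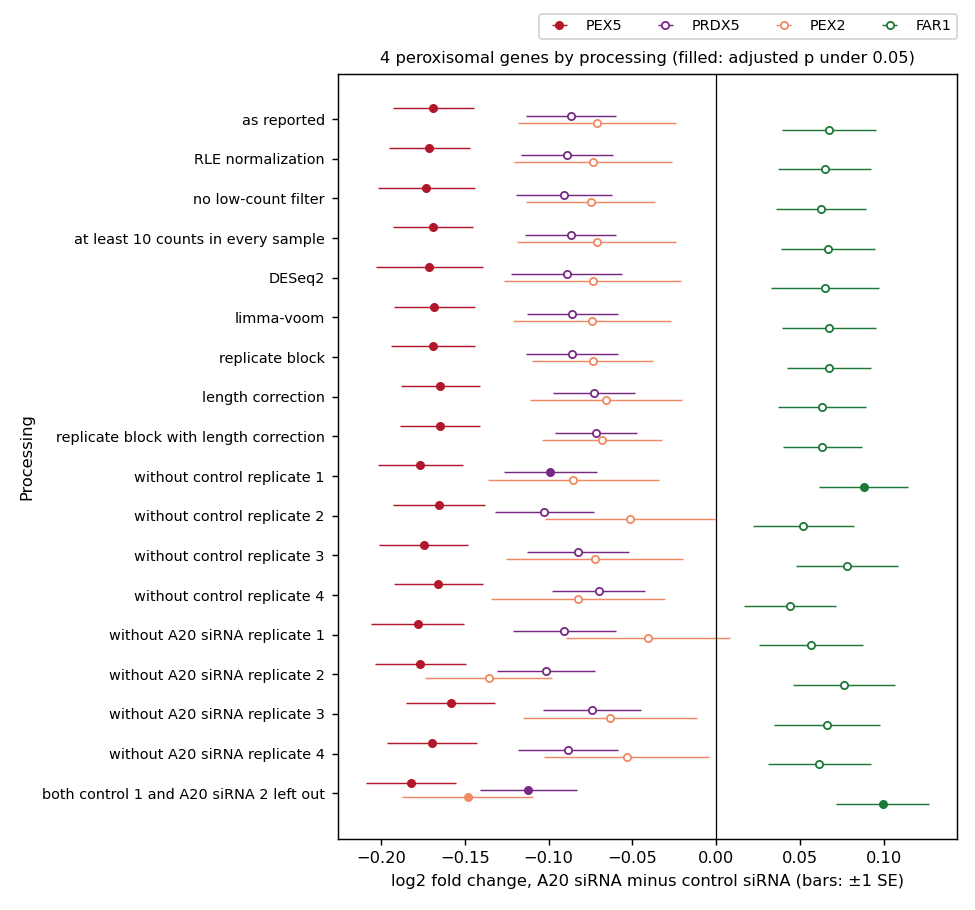
Log2 fold change (A20 siRNA minus control siRNA, bars of 1 standard error either side) of PEX5, PRDX5, PEX2 and FAR1 as reported and under each of the 17 alternatives on the vertical axis, filled where the adjusted p was under 0.05. PEX5 is filled in every line, whereas PRDX5 and FAR1 are filled only without control replicate 1, alone or with A20 siRNA replicate 2, and PEX2 only without both.

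The number of calls thus turned on control replicate 1: without it 2 of the 34 genes were called lower (PEX5 and PRDX5) and 1 higher (FAR1), and with A20 siRNA replicate 2 left out too it was 3 lower (PEX2, PEX5 and PRDX5) and 1 higher (FAR1). Over all tested genes the same step moved the calls from 82 lower and 85 higher to 430 lower and 567 higher without control replicate 1, and to 483 and 614 without both. Without both, the length trend had opposite signs in the groups, so its effect and that of the siRNA cannot be told apart. The length correction was run only with all libraries, where PRDX5, PEX2 and FAR1 passed neither with it nor without it. It therefore cannot decide what the length trend contributed to their calls with libraries left out, which was not tested. PEX5 passed under the correction (-0.16, adjusted p = 0.00137, edgeR).

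Levels of the 34 genes relative to one another were compared per length, as CPM per kb of exon. The order in control cells was led by PRDX5 at 135.1 ± 4.25, followed by GNPAT at 22.8 ± 0.408 and PEX5 at 20.1 ± 0.230. FAR1 (19.7) overlapped PEX5 between libraries, and PEX19 (17.0) and ABCD3 (15.7) followed. The middle of the order ran from SCP2 (12.0), AGPS (11.5), ECH1 (10.8) and PEX3 (10.0) through PHYH (9.73), CAT (9.22), ECI2 (9.12), PEX2 (8.58), PEX13 (8.34) and PEX14 (7.62) to ACOX3 (6.54) and HSD17B4 (5.86). Neighbours from SCP2 to PEX13 did not separate between libraries.

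Below a step after HSD17B4 lay PEX16 (3.79), PEX26 (3.66), ACAA1 (3.58), ABCD4 (3.17), PEX11A (3.11), PEX6 (2.50), PEX7 (2.46), CROT (2.24), PEX10 (2.23), FAR2 (2.17), ACOT8 (1.92) and PECR (1.87), in CPM per kb. The lowest were MLYCD (0.425), DECR2 (0.330), PEX11G (0.274) and AMACR (0.124). Of the neighbours in this order, 14 pairs separated in the controls, and the lowest 4 were separated from PECR above them. PEX5 was 8.17 times as high as PEX7 and 2.63 times as high as PEX14 per kb, FAR1 was 9.08 times as high as FAR2, and the whole range from PRDX5 to AMACR was 1089 times. The level of AMACR, and so that range, is uncertain, because 61.4% of its exonic length is shared with C1QTNF3-AMACR on the same strand. Reads there may not have been counted for AMACR. With the longest transcript in place of all exons, 28 of 34 genes stayed within 3 ranks. By that length HSD17B4 was at 12.2, ABCD4 at 9.32, ACOX3 at 8.76 and PEX16 at 6.87 CPM per kb in control cells. The step after HSD17B4 therefore depends on the length used. The ratio of FAR1 to FAR2 does too, as they were at 26.0 and 4.18. The median gene stood at the 54.3 percentile of all tested genes per kb.

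**Figure D4:**
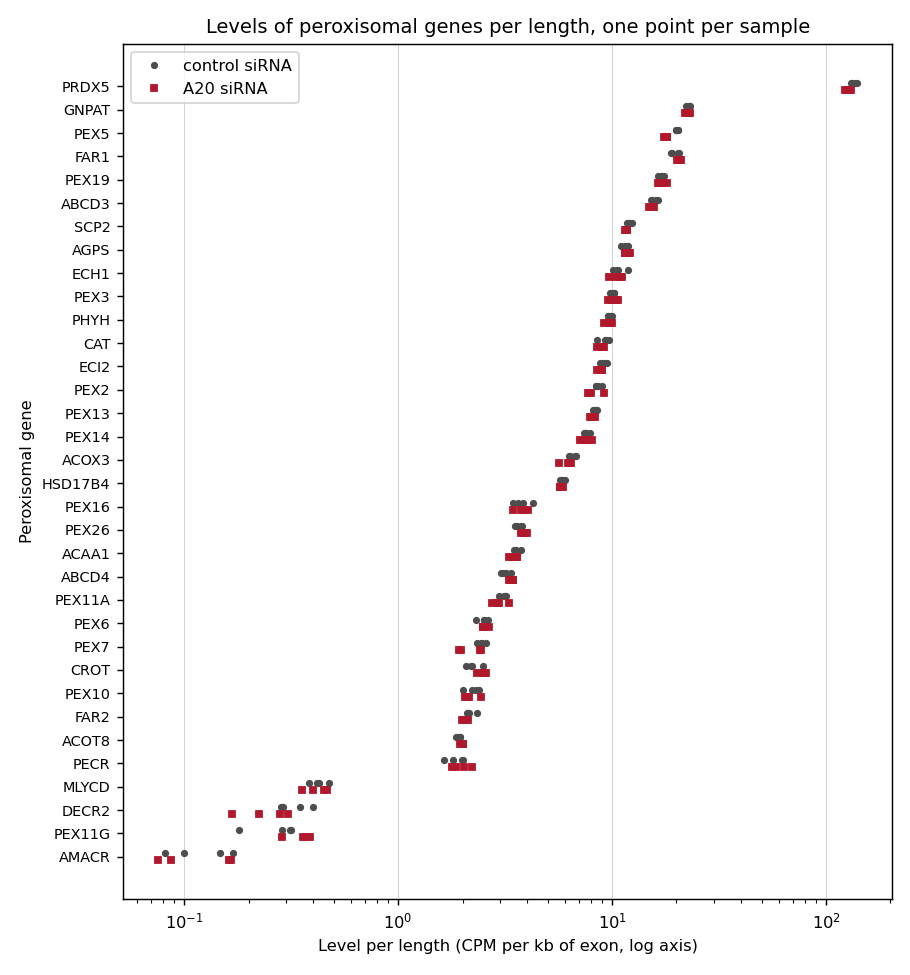
Level per length (CPM per kb of exon, log axis) of each of the 34 genes in the 4 control siRNA libraries (circles) and the 4 A20 siRNA libraries (squares), ordered by control mean. PRDX5 stands alone at the top and MLYCD, DECR2, PEX11G and AMACR at the bottom, and the A20 siRNA points of PEX5 lie left of its control points.

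Most of these genes varied little between replicates. The median coefficient of variation was 3.64% in control and 3.93% in A20 siRNA cells, and the median SE of the log2 fold change was 0.0430, with 21 genes under 0.05 and only AMACR, PEX11G and DECR2 over 0.2. For those 3 genes the SE alone was above the size of the log2 fold change of PEX5, and among the 10 genes with an SE of 0.05 to 0.1, PEX7 and CROT had values near that size that did not pass. Summed over the 34 genes the level was 1588, 1607, 1608 and 1605 CPM in control and 1583, 1585, 1578 and 1582 CPM in A20 siRNA libraries. The sums did not overlap, but without PEX5 they did (1479, 1496, 1499 and 1494 CPM against 1484, 1486, 1483 and 1485 CPM).

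Promoter windows from RefSeq (GRCh38.p14, 300 bases around each start) matched 29 of the 34 genes with 40 windows, without PEX2, PEX14, ACAA1, ECH1 and DECR2. On either strand, the GC box GGGCGG was in 75% of these windows and 45% of all 35116. CCAAT was in 30% and 34.6%, CACGTG in 10% and 7.26%, and the NRF1 motif in 12.5% and 5.78%. The spaced repeat bound by PPAR receptors, in its consensus letters, was in 0% and 0.0228%. Windows of the same gene can overlap, as for PRDX5, PEX19 and ECI2, so a site can be counted more than once. By gene, GGGCGG was in 24 of the 29, CCAAT in 11, CACGTG in 4 and the NRF1 motif in 4. A share by gene was not taken over all windows. None of these motifs holds another. A match describes letters in a window and not a bound site.

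Other genes of the organelle gave 0 calls, where 0.611% of all tested genes were called lower and 0.634% higher. The list held 69 genes (further peroxins, enzymes and transporters, division, contact and turnover factors, and PPAR regulators), of which 53 were tested. By fitted sign 33 were below 0 (62.3%, beside 48.4% of all tested genes) and 20 above 0, with a median log2 fold change of -0.02. By edgeR's test 5 were lower (9.43%) and 3 higher (5.66%) at an unadjusted p under 0.05, beside 7.37% and 8.81% of all tested genes, and the counts by DESeq2 were 1 lower and 0 higher after adjustment. The smallest p belonged to PPARA, a nuclear receptor that drives genes of fatty acid oxidation, at 40.5 ± 1.86 CPM in control and 44.7 ± 1.46 CPM in A20 siRNA cells (log2 fold change 0.14, adjusted p = 0.0595, edgeR). SOD1, a superoxide dismutase partly found in peroxisomes, was at 260.7 ± 4.51 and 239.3 ± 15.5 CPM (-0.12, adjusted p = 0.0725, edgeR; 0.0358 by DESeq2). ATM, a DNA damage kinase that also acts at peroxisomes, was at 65.0 ± 6.24 and 73.7 ± 4.51 CPM (0.18, adjusted p = 0.0872, edgeR). Without control replicate 1 all 3 passed, at 0.18 for PPARA, -0.13 for SOD1 and 0.25 for ATM, and SOD1 passed without A20 siRNA replicate 1 too, at -0.16.

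Mitochondrial oxidation, the parallel pathway that takes over the shortened chains, also gave 0 calls by edgeR and by DESeq2. Over all tested genes edgeR called 0.611% lower and 0.634% higher. Of 22 genes listed 20 were tested, 14 below 0 (70%, beside 48.4% of all tested genes) and 6 above 0, with a median log2 fold change of -0.03. By edgeR's test 2 were lower (10%) and 0 higher at an unadjusted p under 0.05, beside the same 7.37% and 8.81%. HADH, the dehydrogenase of the cycle, had the smallest p, at 64.4 ± 3.27 and 61.1 ± 0.569 CPM (-0.07, adjusted p = 0.291, edgeR), and passed at -0.11 without control replicate 1. ECHS1, the hydratase, was at 154.4 ± 6.53 and 148.1 ± 1.73 CPM (-0.06, adjusted p = 0.292, edgeR). The medians of the 3 lists lay within 0.01 of each other.

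**Figure D5:**
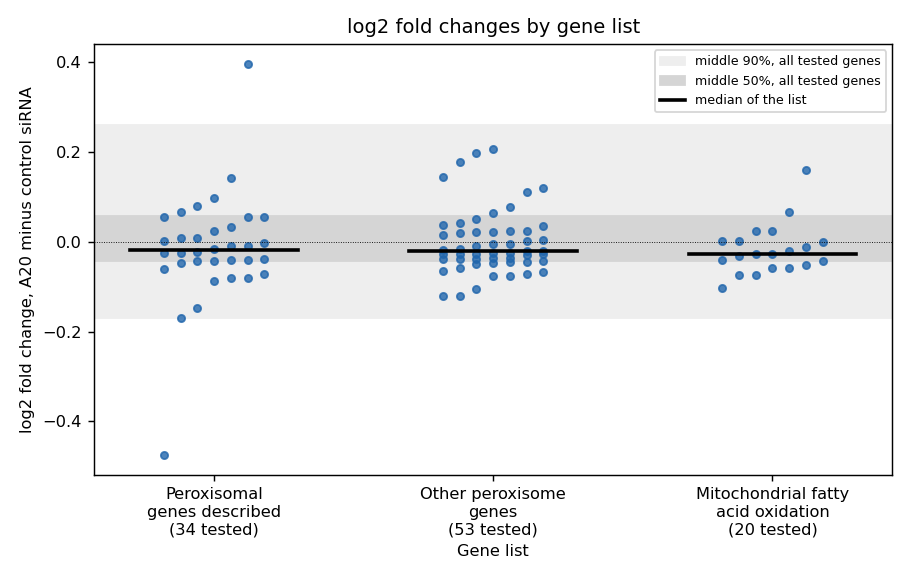
Log2 fold change (A20 siRNA minus control siRNA) of each tested gene in the 34 genes described, the other peroxisome genes (53) and the mitochondrial fatty acid oxidation genes (20), with a bar at each list's median and bands for the middle 50% and 90% of all tested genes. The medians are -0.02, -0.02 and -0.03, and DECR2 at -0.48 and PEX11G at 0.40 (0.22 without control replicate 1) lie outside the wider band, which runs from -0.17 to 0.26.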

How the data were processed

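Poly(A)-selected RNA from 8 RKO samples, 4 per siRNA, was sequenced. The authors deposited raw counts per gene for each sample, made with Trimmomatic and STAR on GRCh38.p7, from uniquely mapping reads over a GENCODE annotation. DESeq2 is also among the tools in the submitters' processing notes. The annotation release and the strand setting of the counting were not given in the sources used here. Each sample's own label placed it in its group.

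Gene IDs without version were matched to GENCODE 44 (56948 of 57992), which also gave lengths, positions and coding sequences. Counts were filtered with filterByExpr (minimum count 10, leaving 13412 genes), scaled by TMM and tested with edgeR 4.0.16 (quasi-likelihood, no covariates, R 4.3.3), with Benjamini-Hochberg adjustment over all tested genes and a threshold of 0.05. CPM values are counts divided by the TMM-scaled library size. The SE given with an edgeR log2 fold change is its absolute value divided by the square root of the test's F statistic. At these depths 3 counts are 0.0877 to 0.141 CPM. That limit covers counting error only, whereas SDs and SEs include the spread between libraries. Within-group pairs of libraries differed by 1.31 to 3.69 times counting noise (chi-square per degree of freedom), so none were treated as duplicates. The scripts were tested on simulated counts.

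Alternatives were RLE scaling, DESeq2 1.42.0, limma-voom (limma 3.58.1), no low-count filter, a filter of 10 or more counts in all samples, the replicate number as a block, removal of each library's loess trend with exonic length (span 0.5), that correction with the block, each library left out in turn, and control replicate 1 and A20 siRNA replicate 2 left out together. The genes and lists were chosen with earlier results of these data known. Values are given library by library for called genes, the 5 with the largest absolute log2 fold change, PEX5 and PEX7, and the 3 highest and 3 lowest per length. PRDX5, SCP2, PEX2, FAR1 and ABCD4 are also given so, and of these PRDX5 alone falls under the rule. The others were added after their values were seen. Of the other lists, called genes and up to 3 with the smallest p are named. Import signals were to be read from RefSeq proteins and were read from translated GENCODE 44 coding sequences instead.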

Additional observations from a re-analysis of the deposited data

Results flagged for a closer look

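In 3 of 70 groups of 4 libraries, for TNFAIP3 and the 34 genes, 1 library lay apart from the other 3 by more than Dixon's 95% criterion allows, where chance would give about 3.5. The ratio of the gap to the whole range was 0.847 for TNFAIP3 in A20 siRNA replicate 2, at 3.01 CPM where the others were at 3.40 to 3.47. It was 0.849 for PEX6, the ATPase that extracts PEX5, in A20 siRNA replicate 1, at 9.24 CPM where the others were at 8.60 to 8.70. It was 0.863 for the isomerase ECI2 in A20 siRNA replicate 4, at 38.9 CPM where the others were at 40.7 to 41.0. Neither PEX6 nor ECI2 was called under any of the alternatives run.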

How the results depend on the processing

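PEX5 kept its direction and its call in 17 of 17 alternatives, and TNFAIP3 in 16 of 16. DESeq2 gave no adjusted p for TNFAIP3, PEX11G, AMACR, DECR2 and PECR. In 23 of the 34 genes the sign never turned, and the 11 others had log2 fold changes of at most 0.06 in size. With the length correction PEX14 turned to 0.0035, GNPAT to 0.0022 and PHYH to 0.0073, and with the replicate block and the length correction together to 0.0026, 0.0016 and 0.0067. PEX16 turned to -0.00080 with no low-count filter and to -0.0033 by DESeq2. Without control replicate 1 and A20 siRNA replicate 2 together, PEX10 turned to 0.033, PEX16 to -0.083 and AMACR to -0.20, 3 of the 34 genes were called lower and 1 higher, their median was -0.043, and the calls were 1 lower and 3 higher among other peroxisome genes and 1 lower among mitochondrial genes. Leaving out each library in turn gave 1 to 2 of the 34 genes called lower and 0 to 1 higher, a median of -0.038 to -0.0041, 0 to 1 lower and 0 to 2 higher among other peroxisome genes, and 0 to 1 lower and 0 to 0 higher among mitochondrial genes. The cause of these changes was not tested. Log2 fold changes that turned in sign had leave-one-out ranges of -0.013 to 0.035 for PEX3, -0.0093 to 0.046 for PEX6, -0.093 to 0.014 for PEX10, -0.041 to 0.017 for PEX14, -0.047 to 0.061 for PEX16, -0.021 to 0.026 for PEX19, -0.024 to 0.0022 for GNPAT, -0.026 to 0.019 for PHYH, -0.13 to 0.24 for AMACR, -0.058 to 0.021 for ECH1 and -0.089 to 0.036 for MLYCD.

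Other peroxisome genes gave 1 call lower (SOD1) and 2 higher (ATM and PPARA) with no low-count filter, and 1 lower (SOD1) and 0 higher by DESeq2. Deviations from the group means correlated at 0.105, 0.0476, 0.0632 and -0.0225 between same-numbered libraries. Such weak correlations over all tested genes cannot decide whether replicate numbers pair the samples, so the block is given as an alternative. With the replicate block the calls among other peroxisome genes were 1 lower and 2 higher, with the replicate block and the length correction 1 lower and 1 higher, and no call among the 34 genes changed. Over all tested genes the calls were 82 lower and 85 higher as reported, 310 and 314 with no low-count filter (28754 genes tested), 122 and 83 by DESeq2, 212 and 262 with the replicate block, 120 and 103 with the length correction, and 220 and 232 with both. Leaving out 1 library gave 6 to 430 lower and 6 to 567 higher, fewest without A20 siRNA replicate 3 and most without control replicate 1. AMACR, PEX11G and DECR2 had under 50 counts in every library, which limits the precision of their values. AMACR and DECR2 also share 61.4% and 14.3% of their exonic length with another gene on the same strand. Among the other genes, the largest such overlaps were 17.5% for ECH1, 16.3% for PEX19, 15.4% for SCP2 and 10.2% for MLYCD.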
